A study of Mus musculus with 22 samples.

Results

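The 4 TEAD transcription factor genes (Tead1, Tead2, Tead3 and Tead4) and 3 VGLL cofactor genes (Vgll2, Vgll3 and Vgll4) were followed through 18 RNA-seq libraries of mouse heart ventricles. They were found by their gene symbols in both deposited count tables, where each symbol matched 1 row, and make up 7 of the 48709 genes in each table. All embryos were at E13.5 and carried Nkx2.5-Cre, which recombines floxed alleles in cardiac precursors, so cells of other origins in the ventricle keep both genes. Experiment 1 compared LIN9 wt with LIN9 KO ventricles (floxed exon 7 of Lin9). The sample titles of experiment 1 name no Sav1 genotype, and both groups were read here as Sav1 wt. Experiment 2 held LIN9 wt and LIN9 KO ventricles, each with Sav1 wt or with Sav1 KO (floxed exon 3 of Sav1). The study gives LIN9 wt as Lin9 fl/+ on a C57/Bl6 background, while the labels call it wild-type. These controls thus carry a floxed Lin9 allele and the Cre. Each of the 6 groups had 3 libraries. The labels do not say whether these came from separate embryos. The study's methods speak of RNA isolated in triplicates, and elsewhere the experiments on LIN9 KO are called biological replicates, each run in triplicate. Libraries of a group differed by more than counting error, with a chi-square per degree of freedom from 1.22 to 26.2 over all pairs. Every SD with n = 3 measures the spread between these libraries. The p-values rest on that spread too, pooled over the groups of a fit and with information shared between genes.

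TEAD factors bind DNA at MCAT elements but activate transcription poorly alone. They do so with YAP or its paralogue TAZ (gene Wwtr1), which enter the nucleus when the Hippo kinases are inactive. SAV1 is the adaptor of the upstream Hippo kinases, and its loss lets YAP act more strongly. VGLL proteins bind TEADs on the surface that YAP also uses. VGLL4 thereby competes with YAP and restrains heart growth, whereas VGLL2 and VGLL3 are known as TEAD partners in skeletal muscle and mesenchymal cells. LIN9 is a subunit of MuvB, which activates late cell cycle genes together with B-MYB.

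Among these genes, Tead4 and Vgll3 differed between LIN9 KO and LIN9 wt ventricles, in opposite directions. Tead4 was lower in LIN9 KO ventricles of both experiments and with either Sav1 genotype, by an average fold of 0.434 (95% confidence interval 0.361 to 0.522). Vgll3 was higher in LIN9 KO ventricles by an average fold of 2.03 (95% confidence interval 1.60 to 2.57), and passed the test with Sav1 wt in both experiments but not with Sav1 KO. Vgll4 passed only in the average, near the threshold. The 3 most abundant TEAD genes, Tead1, Tead2 and Tead3, passed the test in no comparison. No member passed the test for deletion of Sav1 in either LIN9 background, where only 0.017% (LIN9 wt) and 0.0113% (LIN9 KO) of all genes did.

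The tables hold whole-number read counts per gene. Total counts per library lay between 9485599 and 9615274 in experiment 1 and between 2770741 and 2999877 in experiment 2, and CPM denotes the usual scaling of a gene's count by the TMM-normalized library size. The third LIN9 KO Sav1 wt library of experiment 2 stood apart from its group, with chi-square per degree of freedom of 21.5 and 15.2 against the other two, which differed by 6.28. So did the first LIN9 wt Sav1 wt library (4.87 and 5.11, against 1.22 between the other two) and the first LIN9 KO Sav1 KO library (5.69 and 7.33, against 2.83). Counts cover whole genes, while only 1 exon of each target is floxed, so they are a weak check of the labels. Lin9 fell with LIN9 KO by a log2 fold change of -0.80 with Sav1 wt in experiment 2 (edgeR adjusted p = 0.00270), against -0.31 in experiment 1 (adjusted p = 0.130) and -0.16 with Sav1 KO (adjusted p = 0.586), neither of which passed. Sav1 had 36.1 to 44.0 CPM in the 6 Sav1 KO libraries and 47.3 to 61.9 CPM in the 6 Sav1 wt libraries of experiment 2, and other genes cover 28.1% of its exons. Sav1 passed in neither Sav1 comparison (log2 fold change -0.50 with LIN9 wt, edgeR adjusted p = 0.318, and -0.23 with LIN9 KO, adjusted p = 0.464).

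Per length, the levels of the members formed 1 order in 5 of the 6 groups. In LIN9 wt ventricles of experiment 1, Tead2 had 42.8 ± 1.46 CPM per kb of exonic length (SD, n = 3), Tead1 28.6 ± 0.37, Vgll4 14.5 ± 0.93, Tead3 10.6 ± 0.82, Tead4 4.42 ± 0.36, Vgll3 0.503 ± 0.049 and Vgll2 0.126 ± 0.062. By this length, no neighbours in this order overlapped between libraries, in this group or in the other 4 with the same order. In LIN9 KO Sav1 KO ventricles, Tead3 (11.8 ± 0.30 CPM per kb) and Vgll4 (11.6 ± 1.51) overlapped, and their order cannot be told. With the length of the longest transcript in place of the merged exons, Vgll4 came before Tead3 in that group too. By that length Tead1 and Vgll4 stood close. They had 36.1 ± 1.39 and 35.0 ± 3.93 CPM per kb in LIN9 wt Sav1 wt ventricles of experiment 2. In LIN9 KO ventricles of experiment 1 they had 34.7 ± 1.98 and 32.1 ± 1.70, so the gap between Tead1 and Vgll4 depends on the length used. Tead2 and Tead1 together thus held most TEAD reads per length in each group, at 49.6% ± 1.4 and 33.0% ± 0.26 in LIN9 wt ventricles of experiment 1. Of the VGLL reads per length, Vgll4 held 95.8% ± 0.80 there and 90.5% to 97.1% on average in every group.

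**Figure D1:**
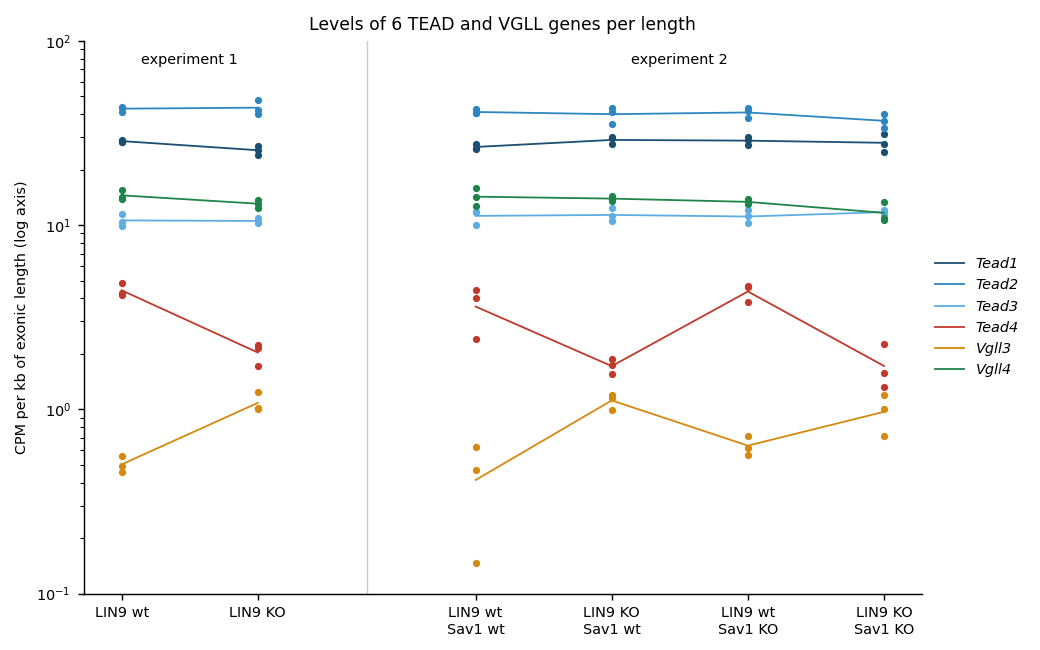
CPM per kb of merged exonic length (log axis) of 6 members in the 6 groups, with 1 point per library and a line through the means of each experiment. Vgll2 is left out because several libraries had 0 counts. Tead2 stands highest and Vgll3 lowest in every group, and the Tead4 and Vgll3 lines approach each other in LIN9 KO ventricles.

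Tead1 (ENSMUSG00000055320, mm10 chr7:112679318-112906807, plus strand) encodes a TEAD factor that is needed for growth of the ventricular wall. In experiment 1, the 3 LIN9 wt libraries had 385, 393 and 384 CPM, and the 3 LIN9 KO libraries had 325, 365 and 347 CPM. The groups did not overlap, but the difference did not pass the test (log2 fold change -0.16, SE 0.11, edgeR adjusted p = 0.316). Groups without overlap in either direction were found for 36.5% of all genes tested in that comparison, and for 35.1% and 41.1% in the LIN9 comparisons with Sav1 wt and with Sav1 KO of experiment 2. In experiment 2, Tead1 had 349, 376 and 355 CPM in LIN9 wt Sav1 wt ventricles and 372, 407 and 401 CPM in LIN9 KO Sav1 wt ventricles, which overlapped and lay the other way (log2 fold change 0.13, SE 0.10, edgeR adjusted p = 0.392). The difference between these LIN9 effects was 0.29 (SE 0.13), with an unadjusted p = 0.0387 and an edgeR adjusted p = 0.868. With Sav1 KO it had 407, 371 and 391 CPM in LIN9 wt and 339, 424 and 375 CPM in LIN9 KO ventricles. Here the double knockout libraries lay on both sides of the LIN9 wt range. Averaged over the 3 LIN9 comparisons, the log2 fold change was -0.05 with a 95% confidence interval of -0.16 to 0.06.

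Tead2 (ENSMUSG00000030796, chr7:45215753-45233644, plus strand) encodes the TEAD factor that is used most in early embryos. It had 197, 210 and 208 CPM in LIN9 wt and 202, 193 and 227 CPM in LIN9 KO ventricles of experiment 1. In experiment 2, LIN9 wt Sav1 wt libraries had 194, 203 and 193 CPM, and LIN9 KO Sav1 wt libraries had 207, 198 and 169 CPM. The low value of 169 CPM came from the third LIN9 KO library, which stood apart. With Sav1 KO, it had 199, 206 and 182 CPM in LIN9 wt and 192, 162 and 175 CPM in LIN9 KO ventricles. All 3 LIN9 comparisons overlapped, and the averaged log2 fold change was -0.08 (95% confidence interval -0.20 to 0.03, edgeR adjusted p = 0.246).

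Tead3 (ENSMUSG00000002249, chr17:28331671-28350817, minus strand) encodes a further TEAD factor, first described in placenta. Its level hardly moved, between 66.3 and 77.2 CPM in the 6 libraries of experiment 1 and between 67.5 and 82.7 CPM in the 12 libraries of experiment 2. Groups of the same experiment overlapped in every pair. The averaged log2 fold change for LIN9 KO was 0.00, with a 95% confidence interval of -0.12 to 0.13, a fold of 0.921 to 1.09.

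Tead4 (ENSMUSG00000030353, chr6:128224288-128300823, minus strand) encodes the TEAD factor of the trophectoderm lineage and of differentiating muscle, and was the least abundant of the TEAD genes. In experiment 1, its 3 LIN9 wt libraries had 169, 146 and 144 counts (17.4, 15.4 and 15.0 CPM), and its 3 LIN9 KO libraries had 74, 74 and 60 counts (8.02, 7.76 and 6.17 CPM). Each LIN9 KO library thus lay below each LIN9 wt library, with a log2 fold change of -1.12 (SE 0.16, edgeR adjusted p = 0.000166). In experiment 2 with Sav1 wt, it had 48, 42 and 25 counts (16.0, 14.4 and 8.65 CPM) in LIN9 wt and 17, 19 and 18 counts (5.59, 6.23 and 6.71 CPM) in LIN9 KO ventricles. The third LIN9 wt library was low, but the groups did not overlap, and the log2 fold change was -1.07 (SE 0.26, edgeR adjusted p = 0.00318). When 1 library at a time was left out, the log2 fold change ran from -0.92 (adjusted p = 0.0253), without the first LIN9 wt library, which stood apart, to -1.29 (adjusted p = 0.000858), without the third. Without the third LIN9 KO library, which also stood apart, it was -1.16 (adjusted p = 0.00473). With Sav1 KO, Tead4 had 41, 49 and 49 counts (13.8, 16.6 and 16.7 CPM) in LIN9 wt and 14, 23 and 16 counts (4.77, 8.10 and 5.69 CPM) in LIN9 KO ventricles. The difference was a log2 fold change of -1.34 (SE 0.26, edgeR adjusted p = 0.000290), again without overlap, and -1.21 (adjusted p = 0.00278) without the first LIN9 KO library, which stood apart. Of the genes tested, 5.53% passed the test as lower in each of these 3 LIN9 comparisons, and 7.85% had groups without overlap, with LIN9 KO lower, in all 3.

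Tead4 made up 5.12% ± 0.45 of the TEAD reads per length in LIN9 wt and 2.51% ± 0.43 in LIN9 KO ventricles of experiment 1. In experiment 2 these shares were 4.38% ± 1.28 and 2.1% ± 0.26 with Sav1 wt, and 5.14% ± 0.66 and 2.2% ± 0.58 with Sav1 KO (SD, n = 3 each). The sum of the 4 TEAD genes per length went from 86.4 ± 0.58 to 81.4 ± 3.2 CPM per kb in experiment 1, from 82.4 ± 3.0 to 82.0 ± 3.7 with Sav1 wt and from 85.0 ± 2.4 to 78.2 ± 0.98 with Sav1 KO. It lay lower in LIN9 KO without overlap in experiment 1 and with Sav1 KO, and the groups overlapped with Sav1 wt. These sums were not tested.

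**Figure D2:**
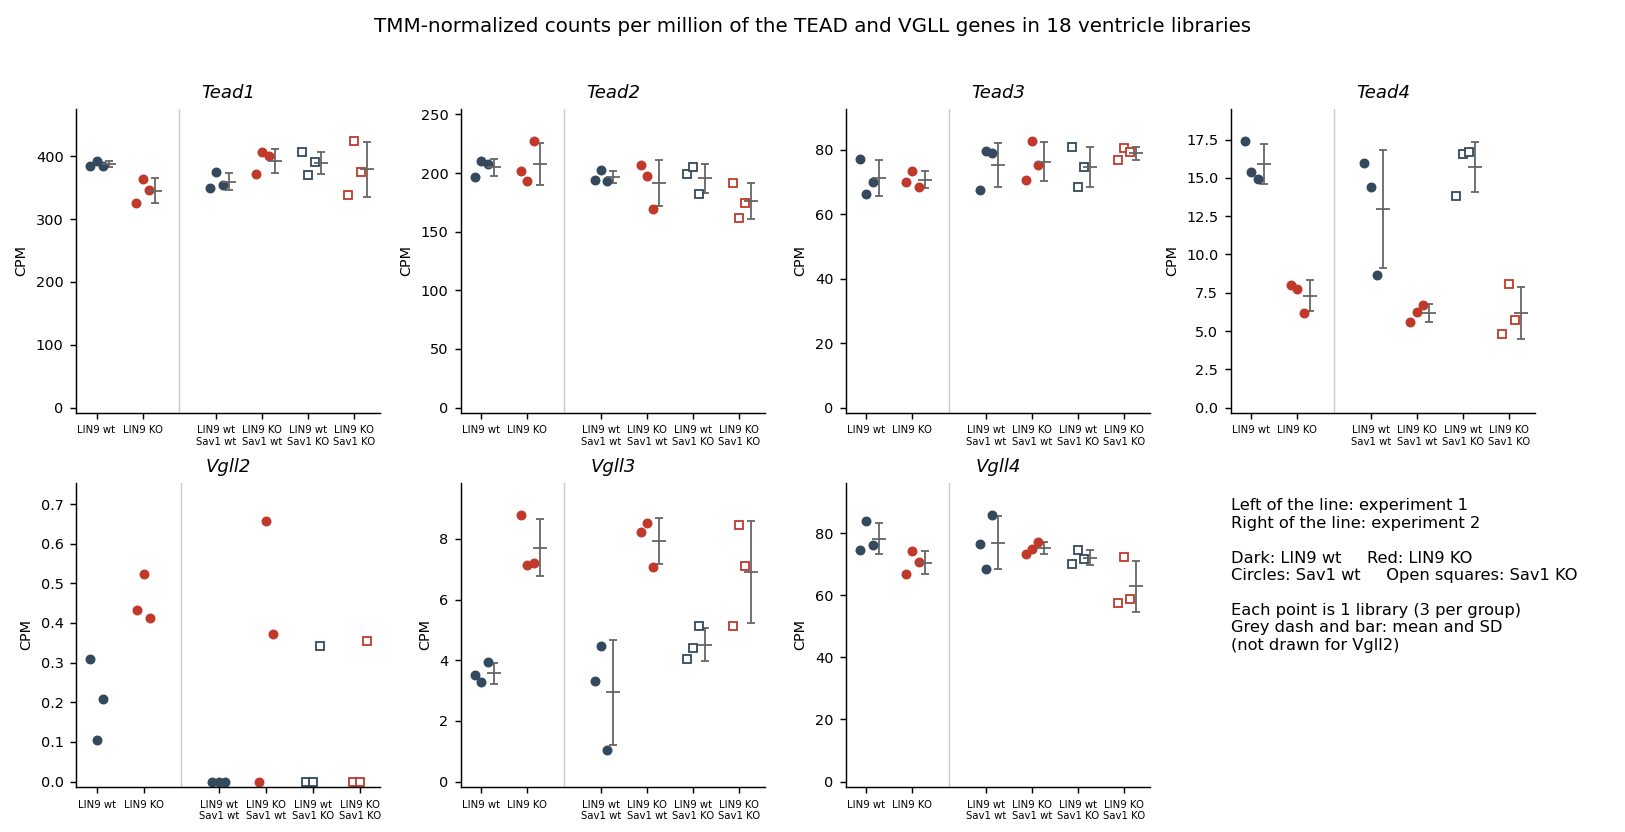
CPM of the 7 members in each of the 18 libraries, with the mean and SD of 3 libraries beside the points (mean and SD not drawn for Vgll2). Dark points are LIN9 wt, red points LIN9 KO, circles Sav1 wt and open squares Sav1 KO. In the Tead4 panel all 9 LIN9 KO libraries lie below all 9 LIN9 wt libraries, and in the Vgll3 panel the LIN9 KO libraries lie above the LIN9 wt libraries except for a touching pair with Sav1 KO.

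Vgll3 (ENSMUSG00000091243, chr16:65815257-65866368, plus strand) rose in LIN9 KO ventricles with Sav1 wt. In experiment 1, it had 34, 31 and 38 counts (3.50, 3.27 and 3.95 CPM) in LIN9 wt and 81, 68 and 70 counts (8.78, 7.13 and 7.20 CPM) in LIN9 KO ventricles. All LIN9 KO libraries lay above all LIN9 wt libraries, with a log2 fold change of 1.10 (SE 0.20, edgeR adjusted p = 0.000951). In experiment 2 with Sav1 wt, it had 10, 13 and 3 counts (3.32, 4.45 and 1.04 CPM) in LIN9 wt and 25, 26 and 19 counts (8.22, 8.53 and 7.08 CPM) in LIN9 KO ventricles. The groups did not overlap, and the log2 fold change was 1.42 (SE 0.35, edgeR adjusted p = 0.00328). The third LIN9 wt library, the one that was also low for Tead4, was the lowest. Without it the log2 fold change was 1.03 (adjusted p = 0.0352), the lowest of the fits with 1 library left out, of which the highest was 1.8. It was 1.5 (adjusted p = 0.00876) without the first LIN9 wt library and 1.46 (adjusted p = 0.00494) without the third LIN9 KO library, both of which stood apart.

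With Sav1 KO, Vgll3 had 12, 13 and 15 counts (4.04, 4.39 and 5.12 CPM) in LIN9 wt and 15, 24 and 20 counts (5.11, 8.45 and 7.11 CPM) in LIN9 KO ventricles. The groups met at 5.11 and 5.12 CPM, and the log2 fold change of 0.60 (SE 0.33, edgeR adjusted p = 0.200) did not pass the test, nor did that of 0.75 (adjusted p = 0.139) without the first LIN9 KO library, which stood apart. The LIN9 effects with Sav1 KO and with Sav1 wt differed by -0.82 (SE 0.49, 95% confidence interval -1.82 to 0.19, edgeR adjusted p = 0.814), so a weaker effect with Sav1 KO was not shown. With 1 library left out, this difference ran from -1.197 to -0.43, the latter without the third LIN9 wt Sav1 wt library. It passed the test in none of these fits. Of the VGLL reads per length, Vgll3 held on average 3.3% in LIN9 wt and 7.6% in LIN9 KO ventricles of experiment 1, 2.9% and 7.3% with Sav1 wt in experiment 2, and 4.5% and 7.6% with Sav1 KO.

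Vgll4 (ENSMUSG00000030315, chr6:114860628-114969994, minus strand) was the main VGLL gene. It had 74.5, 83.9 and 76.3 CPM in LIN9 wt and 66.7, 74.1 and 70.6 CPM in LIN9 KO ventricles of experiment 1. These groups did not overlap, but the difference did not pass the test (log2 fold change -0.15, SE 0.10, edgeR adjusted p = 0.327). In experiment 2, it had 76.5, 68.5 and 85.8 CPM in LIN9 wt and 73.3, 74.8 and 77.2 CPM in LIN9 KO ventricles with Sav1 wt. It had 70.0, 74.6 and 71.6 CPM in LIN9 wt and 57.6, 72.2 and 58.7 CPM in LIN9 KO ventricles with Sav1 KO. Both pairs overlapped. Averaged over the 3 comparisons it was lower by a log2 fold change of -0.15 (95% confidence interval -0.28 to -0.03, edgeR adjusted p = 0.0428), near the threshold. Of 6 other settings only the fit with the replicate number as a block passed (adjusted p = 0.0352), and the other 5 gave adjusted p-values from 0.0741 to 0.163. When 1 library at a time was left out, 4 of 18 fits passed, with adjusted p-values from 0.0252 to 0.226.

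Vgll2 (ENSMUSG00000049641, chr10:52022502-52028471, plus strand), which is known from differentiating skeletal muscle, was near the limit of detection. In experiment 1, it had 3, 1 and 2 counts in LIN9 wt and 4, 5 and 4 counts in LIN9 KO ventricles. The groups did not overlap, but the difference did not pass the test (log2 fold change 1.09, SE 0.65, edgeR adjusted p = 0.275). Summed over the 3 libraries, these are 0.210 CPM (95% exact Poisson interval 0.0772 to 0.458, which covers counting error only) and 0.452 CPM (0.241 to 0.773). In experiment 2 it had 0 counts in all 3 LIN9 wt Sav1 wt libraries, which allows a level of up to 0.342 CPM at 3 counts over the group, while the 95% exact Poisson interval reaches 0.42 CPM. The other 3 groups had 3, 1 and 1 counts in all, and Vgll2 was not tested there because its mean count was not above 1. Of 7 skeletal muscle markers, summed levels lay between 2.40 and 10.8 CPM per library, and Myf5 was at 0 in every group. In the fit over all 18 libraries, the averaged log2 fold change of Vgll2 was 1.64 with a 95% confidence interval of -0.33 to 3.61 (edgeR adjusted p = 0.178), which did not pass the test. With 1 library left out, this value ran from 0.83 to 2.49, and under other settings from 1.21 to 1.67. It passed in none of these fits. Vgll1, the remaining VGLL gene, averaged 0.114 CPM or less in each group.

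In experiment 1, 2 of the 7 members passed the test between LIN9 KO and LIN9 wt (Tead4 lower, Vgll3 higher), where 20.9% of the 19752 genes tested did. In experiment 2 it was 2 of the 6 members tested with Sav1 wt, against 23.2% of 17675 genes, and 1 of 6 (Tead4) with Sav1 KO, against 23.4%. In the average over all 18 libraries it was 3 of 7, against 43.1% of 18737 genes. The share of members that passed is therefore near that of all genes. The members' median log2 fold changes were -0.01, -0.01 and -0.09 in the 3 comparisons and -0.05 in the average, where the medians of all genes tested were 0.02, 0.01, 0.03 and -0.01. The difference in LIN9 effect between the experiments passed for 0 of 7 members and 0% of all genes (0 calls by DESeq2 as well, and 1071 genes with p under 0.05 before adjustment).

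**Figure D3:**
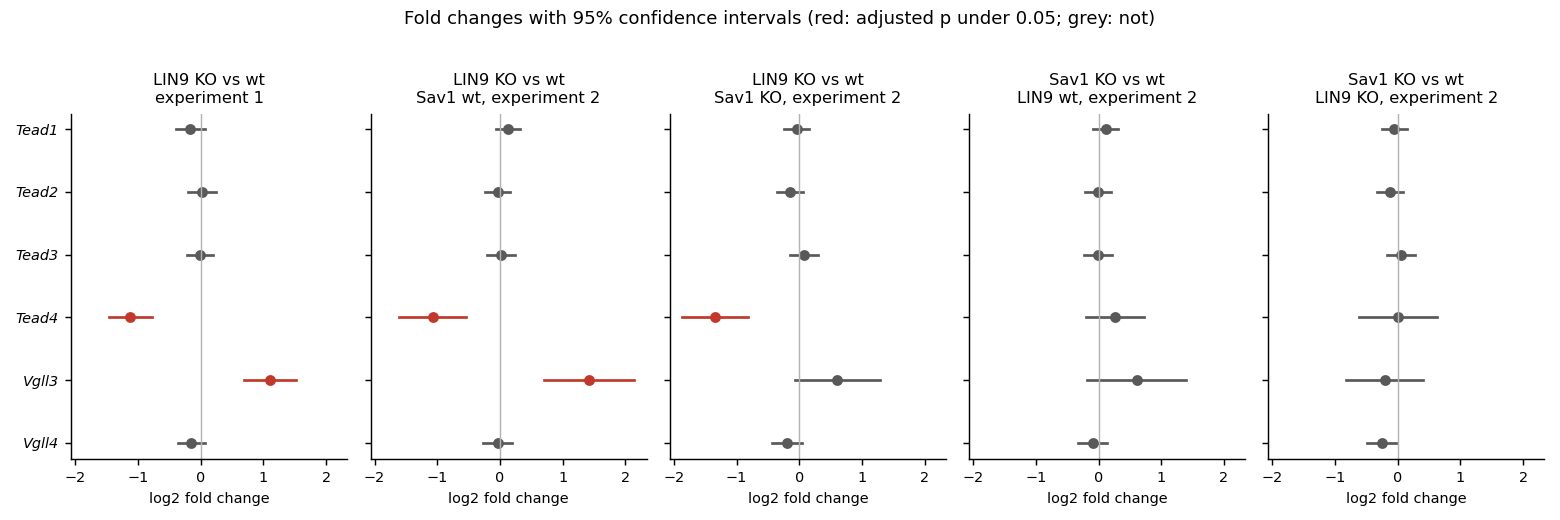
Log2 fold changes from edgeR with 95% confidence intervals for 6 members in 3 LIN9 and 2 Sav1 comparisons, with red for an adjusted p under 0.05. Tead4 lies near -1.1 to -1.3 in the 3 LIN9 panels, and Vgll3 passes in the first and second of them. No member is red in the Sav1 panels, where 0.017% (LIN9 wt) and 0.0113% (LIN9 KO) of all genes passed.

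Deletion of Sav1 was compared within experiment 2 to ask whether loss of Hippo signalling moves the TEAD and VGLL genes themselves. With LIN9 wt, 0 of 6 members passed the test, where 0.017% of all genes did (3 by edgeR and 2 by DESeq2, with 693 at p under 0.05 before adjustment). The log2 fold changes for Sav1 KO ran from -0.09 (Vgll4) to 0.61 (Vgll3). For Tead1 the difference was 0.11 (95% confidence interval -0.08 to 0.31), for Tead2 -0.01 (-0.21 to 0.19) and for Tead3 -0.01 (-0.24 to 0.21). Those of the low genes were less certain, at 0.27 for Tead4 (-0.20 to 0.73) and 0.61 for Vgll3 (-0.19 to 1.40). With 1 library left out, the Vgll3 value ran from 0.21, without the third LIN9 wt Sav1 wt library, in which both genes were low, to 1.005, without the second. The Tead4 value ran from 0.05, without the third, to 0.45, without the first.

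With LIN9 KO, 0 of 6 members passed for Sav1 KO, where 0.0113% of all genes did (2 by edgeR and 11 by DESeq2, with 2093 at p under 0.05 before adjustment). Vgll4 was at 73.3 to 77.2 CPM in the Sav1 wt and at 57.6 to 72.2 CPM in the Sav1 KO libraries, without overlap, a log2 fold change of -0.26 (95% confidence interval -0.49 to -0.02, unadjusted p = 0.0348, edgeR adjusted p = 0.379). Groups without overlap were found for 15.1% of all genes. Tead4 stayed at its low LIN9 KO level with either Sav1 genotype, at 6.18 ± 0.56 CPM with Sav1 wt and 6.19 ± 1.72 CPM with Sav1 KO (SD, n = 3 each), a log2 fold change of 0.00 with a 95% confidence interval of -0.61 to 0.62. The interaction of both deletions passed for 0 of 6 members and 0% of all genes (0 calls by DESeq2 as well, and 1156 genes with p under 0.05 before adjustment).

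Markers of other cell types moved with LIN9 KO as well. Ranges are given over both tables, which were normalized separately. In ventricle RNA, fewer cells of a type and less RNA per cell cannot be told apart. Of 10 cardiomyocyte markers, 9 were lower in the average over all libraries and 0 higher. In that fit 22.6% of all genes passed as lower and 20.4% as higher, which holds for the marker counts that follow too. Their summed level fell from between 21690 and 27240 CPM in the 9 LIN9 wt libraries to between 9766 and 15190 CPM in the 9 LIN9 KO libraries, and none was at 0. This moves in the direction of Tead4, and its part in the Tead4 result was not tested. In the direction of Vgll3, 5 of 6 epicardial markers were higher and 0 lower (summed 213 to 293 CPM in LIN9 wt and 427 to 564 CPM in LIN9 KO libraries), as were 8 of 8 fibroblast and cushion mesenchyme markers (2286 to 3493 and 4707 to 6866 CPM). No epicardial or fibroblast marker was at 0 in any group, and their part in the Vgll3 result was not tested. Macrophage markers were higher for 5 of 6 (85.8 to 109.6 and 172.5 to 220.6 CPM), erythroid markers for 6 of the 6 tested (1564 to 5107 and 4813 to 39970 CPM) and endothelial markers for 6 of 8, with 1 lower (915 to 1173 and 1066 to 1459 CPM). Alas2, a haem synthesis enzyme of red cells, was listed at 0 in every library. Smooth muscle markers were higher for 2 of 6 and lower for 1 (1504 to 1803 and 1540 to 2390 CPM), skeletal muscle markers were higher for 1 of the 3 tested, and neural crest and nerve markers were lower for 1 of the 4 tested (27.2 to 38.4 and 19.1 to 29.9 CPM).

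The genes that work with the TEAD factors were read from 4 lists, with counts from the average over all libraries. Of 10 tested coactivators and other TEAD-binding partners, 2 were higher and 3 lower in LIN9 KO, against 20.4% and 22.6% of all genes, and the median was -0.06 on the log2 scale. Wwtr1, which encodes TAZ, had 124 ± 3.7 CPM in LIN9 wt and 148 ± 15.1 CPM in LIN9 KO ventricles of experiment 1. It had 126 ± 7.4 and 170 ± 6.1 CPM with Sav1 wt and 122 ± 14.6 and 150 ± 4.5 CPM with Sav1 KO in experiment 2. Its averaged log2 fold change was 0.30 (SE 0.06, edgeR adjusted p = 5.91e-05), but it did not pass in experiment 1 alone (adjusted p = 0.0944). Yap1 did not pass in the average (0.11, SE 0.06, adjusted p = 0.155). Irf2bp2, a corepressor that binds VGLL4, rose by 0.49, while Parp1, a poly-ADP-ribose polymerase, fell by 0.35 and Ncoa1, a nuclear receptor coactivator, fell by 0.22 on the log2 scale. In the separate LIN9 comparisons, Irf2bp2 passed only with Sav1 wt in experiment 2 (edgeR adjusted p = 9.11e-05). Parp1 (0.000374) and Ncoa1 (0.0283) passed only with Sav1 KO. Srf, a muscle transcription factor, was listed at 0 in every library, so a 0 in these tables does not show that a gene is silent.

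Of 12 Hippo kinases and adaptors, 2 were higher and 3 lower, with a median log2 fold change of -0.06. Taok3, a kinase upstream of the Hippo kinases, rose by 0.61 (edgeR adjusted p = 1.63e-07). Nf2, which encodes Merlin and activates the cascade at the membrane, fell by 0.34 (adjusted p = 4.00e-05), Wwc1, a scaffold, rose by 0.30 (adjusted p = 0.0113), and Lats2, the kinase that inactivates YAP, fell by 0.19 (adjusted p = 0.0151). In experiment 2, Wwc1 rose by 0.61 with Sav1 wt (edgeR adjusted p = 0.0172) but by 0.02 with Sav1 KO (adjusted p = 0.954). Lats2 passed in no separate LIN9 comparison, and Nf2 only in that of experiment 1 (edgeR adjusted p = 0.0177). The 5 of 12 that passed in the average compare with 43.1% of all genes.

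Of 22 YAP-TEAD target genes, 21 were tested, of which 14 were higher and 0 lower, with a median log2 fold change of 0.44. In the separate comparisons 10 of 22 were higher in experiment 1, 12 of 21 with Sav1 wt and 9 of 21 with Sav1 KO, and 0 lower, where 11.1%, 12.8% and 11.8% of all genes were higher (20.4% in the average). Myof, which serves membrane repair, rose by 1.55 (edgeR adjusted p = 5.24e-15), Axl, a receptor tyrosine kinase, by 0.96 (4.51e-13), Ptpn14, a phosphatase that binds YAP, by 0.78 (2.69e-11) and Crim1, a membrane protein that binds BMPs, by 0.62 (6.89e-08). With deletion of Sav1, 0 of the 21 passed in either LIN9 background, where 0.017% (LIN9 wt) and 0.0113% (LIN9 KO) of all genes did, so this count tells nothing particular about the list. Several of these genes are expressed in mesenchymal cells, whose markers rose beside them, and the part of that was not tested.

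Of 7 muscle genes with MCAT elements, 6 were tested, of which 1 was higher and 4 lower, where 20.4% of all genes were higher and 22.6% lower, with a median log2 fold change of -0.62. Ckm, the muscle creatine kinase, fell by 2.38 (edgeR adjusted p = 9.19e-11), Myh7, the slow myosin heavy chain, by 1.07 (4.99e-05) and Tnnt2, cardiac troponin T, by 0.75 (7.20e-12), beside the cardiomyocyte markers, of which the last 2 are part. Nppb, a natriuretic peptide gene, rose by 1.51 (1.99e-13). Acta1 was listed at 0 in every library.

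**Figure D4:**
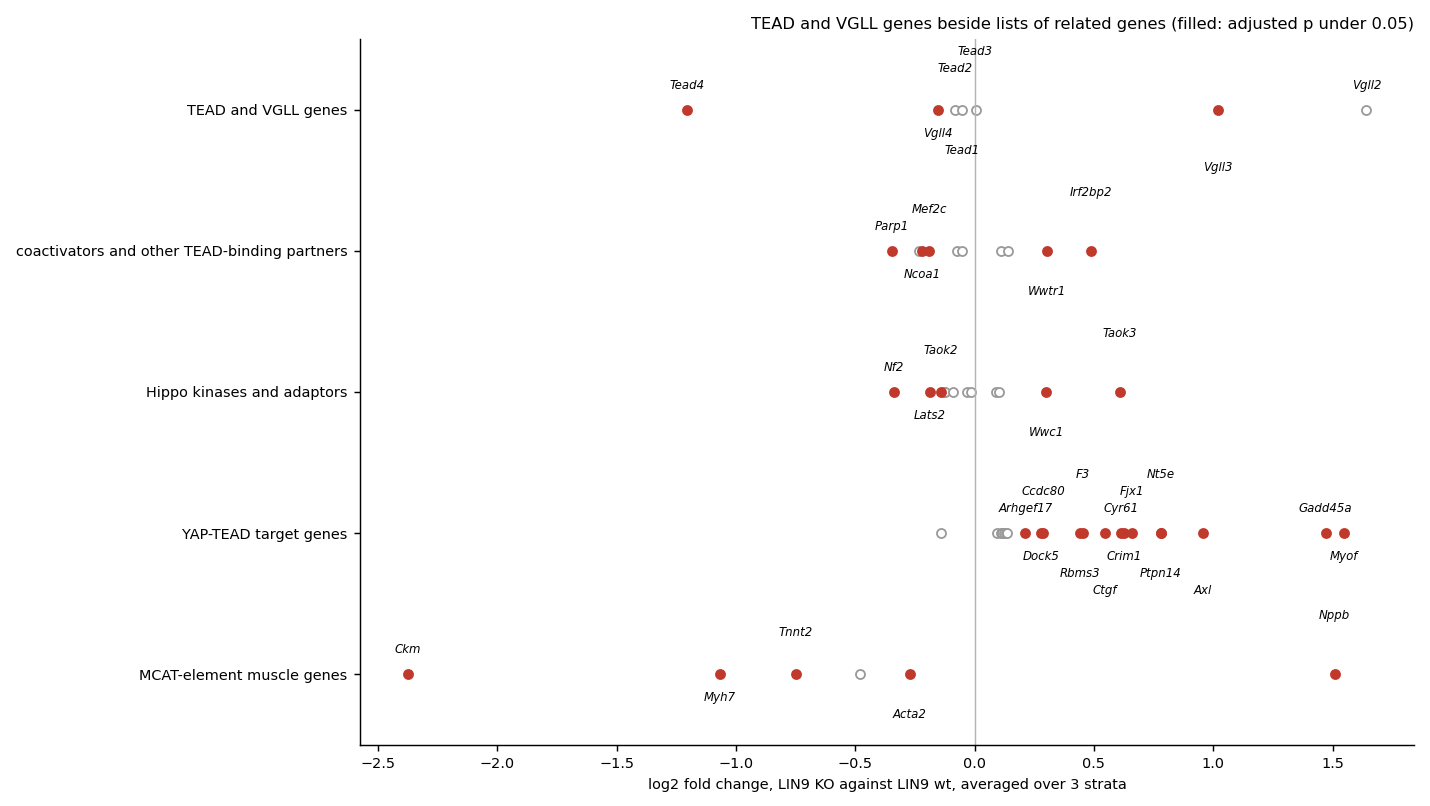
Log2 fold changes for LIN9 KO against LIN9 wt, averaged over the 3 LIN9 comparisons, of the TEAD and VGLL genes and of 4 lists of related genes. Filled points had an adjusted p under 0.05 and are named, as are all 7 members. Of the YAP-TEAD target genes 14 are filled and all of these lie to the right of 0, while Tead4 lies among the falling muscle genes, near Myh7. The value of Vgll2 rests on few counts.

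The pattern over libraries was compared as Pearson's r of log2 CPM after taking off the mean of each experiment, over 18 libraries and 12118 genes with at least 5 CPM, as a description. Libraries of 1 genotype share it, so r rests in part on the group differences. Tead4 was most like Prkx (0.95), a protein kinase, Speg (0.95), a kinase of striated muscle, and the pseudogene Hsp25-ps1 (0.95), whose reads may come from its parent gene. Vgll3 was below 5 CPM in part of the libraries, and its closest genes were Crb2 (0.91), a cell polarity protein, Krt7 (0.90), a keratin of simple epithelia, and Tmem37 (0.90). For genes that did not differ by genotype the highest values were lower, with Insr (0.83), Dhx35 (0.81) and Gramd4 (0.81) for Tead1, Zmat2 (0.88), Gm5075 (0.87) and Pdcl3 (0.86) for Tead2, and Fam21 (0.89), Chd6 (0.80) and Zmym4 (0.80) for Tead3. For Vgll4 they were Gm9061 (0.80), Adra1b (0.78) and Tab1 (0.78). Between members, r was -0.55 for Tead4 and Vgll3, 0.42 for Tead4 and Vgll4 and -0.51 for Vgll3 and Vgll4, and between TEAD genes it ran from -0.39 (Tead2 and Tead3) to 0.38 (Tead1 and Tead3).

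Promoter sequence is shown because TEAD factors bind the MCAT element GGAATG, and the members' own starts were searched for it. RefSeq windows of 300 bases (250 before to 50 after a start, GRCm38.p6) were found for 5 of the 7 members, with 3 windows for Tead3 and 1 each for Tead2, Vgll2, Vgll3 and Vgll4. Tead1 and Tead4 had no window. The letters GGAATG were searched on both strands and were present in 14.7% of 32851 windows of this length. They were found before the start of Vgll3, of Vgll4 and of 2 of the Tead3 starts, and after the second Tead3 start at +3. The following stretches of 30 bases on the gene's strand hold them in capitals, where CATTCC is the same element on the other strand.
Vgll3, chr16:65815114-65815143, plus strand, match at -63: cccgcctccccaCATTCCggctaccctgcc
Vgll4, chr6:114969268-114969297, minus strand, match at -82: cgagtggggtggGGAATGctgagaaatgcc
Tead3, start 2, chr17:28350702-28350731, minus strand, matches at -123 and -114: gccgggctCATTCCgtaCATTCCggccatc
Tead3, start 3, chr17:28350970-28350999, minus strand, match at -182: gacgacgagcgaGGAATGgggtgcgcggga
In the GENCODE annotation of mm10, the Vgll3 stretch and that of the third Tead3 start lie outside any gene, the Vgll4 stretch lies in an intron of Vgll4, and that of the second Tead3 start lies in an untranslated exon of Tead3. The 2 elements of the latter are 3 bases apart. Thus Vgll3, which rose in LIN9 KO ventricles, Vgll4, which passed in the average only, and Tead3, which passed in no comparison, each hold the letters. The letters of the CHR element bound by MuvB (TTTGAA, in 17.9% of windows) and of an E2F site (GCGGGAA, in 4.6% of windows) were in none of the members' windows on either strand, which says only that these letters are not in these windows.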

How the data were processed

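Polyadenylated RNA, selected from total RNA of E13.5 ventricles, was sequenced as 18 libraries. The authors mapped the reads to mm10 with TopHat2 (2.1.0) and Bowtie2, brought every sample to the mapped read number of the smallest, and deposited whole-number counts per Ensembl gene from summarizeOverlaps. Overlap mode and strandedness are not given in the sources used here. The authors' deposited edgeR fold changes, p-values and FDR were not used, nor were the ChIP-seq samples. Depth was about 3-fold lower in experiment 2, so low genes are less certain there. All per-sample columns were used (0 left out), and 4 repeated identifiers were dropped.

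Genes were tested by edgeR's robust quasi-likelihood method after TMM normalization (R 4.3.3, edgeR 4.0.16), on those with a mean count above 1. Experiment 1 was fitted on its 6 libraries, experiment 2 on all 12, and the average over the 3 LIN9 comparisons, as well as the difference between experiments, on all 18. Benjamini-Hochberg adjustment ran over all genes tested with a threshold of 0.05, and 95% confidence intervals came from the fit. Log2 CPM used a prior count of 2. Lengths and positions are from GENCODE M21 on mm10, and promoter windows from RefSeq.

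The alternatives were DESeq2 (1.42.0), RLE normalization, a mean count of at least 10 or no filter, the replicate number as a block, the 6 libraries of a comparison alone and each library left out in turn. Total-count scaling was added after seeing the data. On simulated counts for 19409 genes of experiment 1, 96% of changes of 1 and 50% of changes of 0.5 on the log2 scale were recovered, and for 17446 genes of experiment 2 these were 94% and 31%. Recovery for genes with counts as low as those of Vgll3 and Vgll2 was not tested separately, so these shares do not stand for them. The members and lists were chosen with earlier results of these data known. Text names all 7 members, Lin9 and Sav1, Yap1 and Wwtr1, up to 4 genes per related list with the smallest adjusted p in the averaged fit, and the 3 genes most like each member of at least 5 CPM in both tables. Vgll1, Srf, Acta1, Alas2 and Myf5 were named after their values were seen.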

Additional observations from a re-analysis of the deposited data

How the results depend on the processing

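The calls for Tead4 and Vgll3 were the same in every fit run, as were the missing calls for Tead1, Tead2 and Tead3. Vgll4 in the average over 3 LIN9 comparisons was the exception, with adjusted p-values of 0.0999 under RLE normalization, 0.0829 under total-count scaling, 0.163 without a filter, 0.0741 with a mean count of at least 10 and 0.115 with DESeq2, and the cause was not tested. Depth limits the low genes Tead4, Vgll3 and Vgll2 in experiment 2, where 3 counts over a group stand for 0.337 to 0.349 CPM.

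Counts over all genes moved under some settings, and the causes were not tested. For Sav1 KO with LIN9 wt, 3 genes became 22 without a filter, 31 with only the 6 libraries compared, and 0 to 7 when 1 library was left out. For Sav1 KO with LIN9 KO, 2 genes became 11 with DESeq2, 0 with a mean count of at least 10, 309 without a filter, 0 with only the 6 libraries compared and 0 to 378 when 1 library was left out, with 378 without the third LIN9 KO Sav1 wt library. The interaction of both deletions became 17 without a filter and 0 to 64 when 1 library was left out, with 64 without that same library. With 1 library left out, the LIN9 comparison of experiment 1 gave 2722 to 4223 genes against 4131, with 2722 without the third LIN9 wt library (4481 without a filter and 5001 with the replicate block), and the difference between experiments gave 0 to 1. In such fits the group keeps 2 libraries, and the spread is pooled over the groups. None of the 7 members passed in any of these Sav1, interaction or experiment fits.

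Same-numbered libraries did not deviate together in every pair of any 2 groups compared (correlations from -0.0514 to 0.393), so the numbers were not taken as pairs. With the replicate block, 84 genes passed for Sav1 KO with LIN9 KO and 1 for the difference between experiments, and no call on a member changed. With the longest transcript as length, Vgll4 had rank 3 and Tead3 rank 4 in LIN9 KO Sav1 KO ventricles, and Vgll4 came close to Tead1 in some groups.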
